A study of Arabidopsis thaliana with 6 samples.

Results

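Transcripts of 10 calcium-dependent protein kinase genes were followed on 6 Affymetrix ATH1 arrays of young Arabidopsis thaliana leaves, 10 probe sets of the 21428 in the deposited table. They are CDPK2, whose other name is CPK11 (probe set AT1G35670_at, the locus followed by a suffix), and its relatives CPK4 (AT4G09570_at), CPK12 (AT5G23580_at), CPK1 (AT5G04870_at), CPK5 (AT4G35310_at), CPK6 (AT2G17290_at), CPK3 (AT4G23650_at), CPK30 (AT1G74740_at), CPK32 (AT3G57530_at) and CPK28 (AT5G66210_at). CDPK2 is not CPK2, which is another gene. CDPK2 was chosen by its log2 change between the genotypes on these same arrays, and its 9 relatives were listed with those values known. The genotype differences of the 10 kinases are therefore described with their errors. Where it is counted how many of the 10 passed the fit over all probe sets, the count is a description and not a test of the choice. All 10 loci had a probe set, and no filter on weak signals was applied.

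The arrays held total RNA from leaves 1 and 2 of Columbia-0 seedlings, 3 arrays of AN3-GR plants and 3 of wild type, each from a separate biological repeat. AN3-GR is a fusion of the transcriptional coactivator AN3 with the glucocorticoid receptor domain, which holds a fused protein inactive until a steroid is given. Both genotypes were raised in long days (16 h light, 8 h dark), moved at 8 days to medium with 5 µM dexamethasone and harvested 8 h later, so the wild type carried the steroid treatment too. The promoter that drives the fusion and the number of transgenic lines are not given in the sources used here, and AN3-GR plants without dexamethasone were not analysed here. A standing difference between the lines thus cannot be told apart from a response to the steroid-activated fusion.

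Calcium-dependent protein kinases carry a protein kinase domain, an autoinhibitory segment and a calcium-binding calmodulin-like domain in 1 protein, so that a rise in cytosolic calcium switches the kinase on directly. In Arabidopsis they form a large family in 4 subgroups, and they act in abscisic acid signalling, stomatal closure, immunity, nitrate signalling and growth. In leaves they are known best from guard cells and from the early response to microbial elicitors such as flagellin. The family is controlled at the protein level by calcium and phosphorylation, which transcript arrays do not measure.

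AN3, the fused gene, checks the labels. Its log2 expression value was 10.56, 10.02 and 10.55 in AN3-GR replicates 1, 2 and 3 and 7.39, 6.98 and 7.61 in wild type replicates 1, 2 and 3. Every array labelled AN3-GR lay above every wild type array, by a log2 change of 3.05 (SE 0.19). Array medians lay between 6.22 and 6.32. Of 5 leaf markers only the light-harvesting gene LHCA1 was measured, at 12.13 to 12.86. Other markers were summed per array, as log2 of the sum of linear values. The summed level was 6.52 to 6.82 for the 4 root markers and 5.61 to 5.90 for the 4 shoot meristem markers, with overlapping genotypes. For the 5 guard cell markers the summed level ran from 8.76 to 9.19 in AN3-GR and from 9.13 to 9.38 in wild type.

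CDPK2 was the kinase with by far the widest gap between genotypes. Its expression value was 7.04, 6.74 and 7.31 in AN3-GR replicates 1, 2 and 3, and 4.38, 4.41 and 4.52 in wild type replicates 1, 2 and 3. The groups lay far apart, and the wild type arrays were close to each other and only a little above 4.06, the level under which the weakest 25% of probe sets lay and which is called the lower quartile from here on. The AN3-GR mean was 7.03 ± 0.28 (SD, n = 3) and the wild type mean 4.44 ± 0.07 (SD, n = 3) on the log2 scale. This is a log2 change of 2.59 (SE 0.14), or 6.03-fold, and only AN3 among the 21428 probe sets had a change of larger size. Since RMA compresses weak signals and the wild type level is weak, the size of the fold is uncertain. Between arrays of the same number the difference was 2.66, 2.33 and 2.79, and with any 1 array left out the change stayed between 2.45 and 2.74. In a whole leaf, more cells with the transcript and more transcript per cell cannot be told apart.

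**Figure D1:**
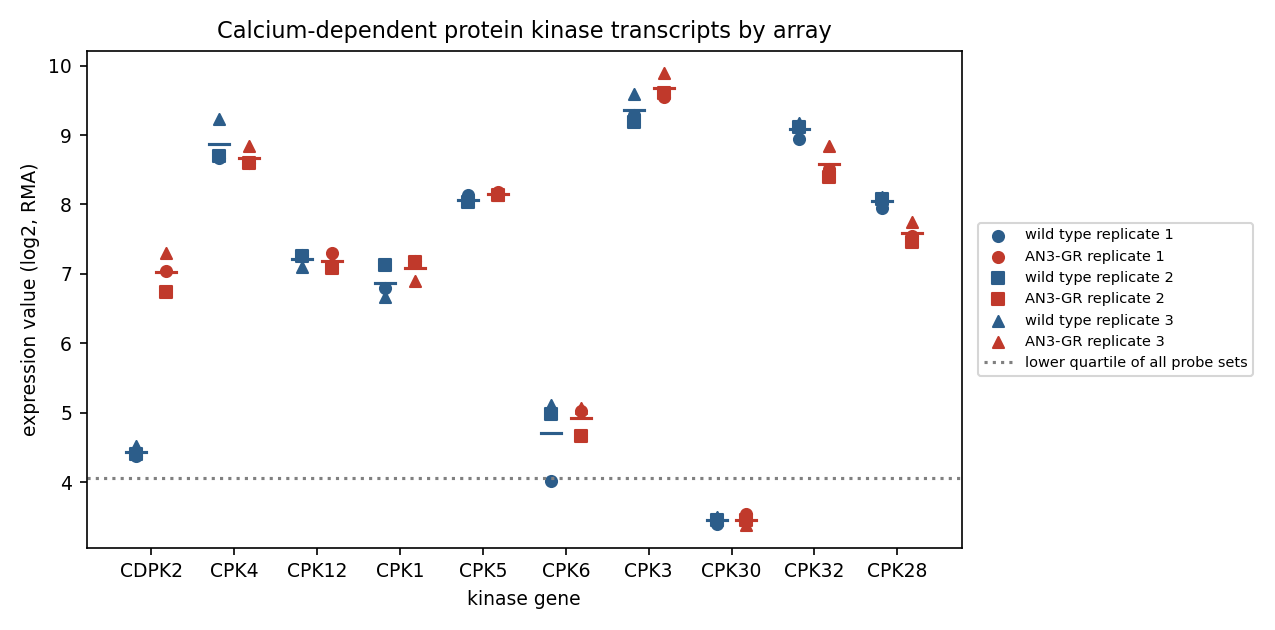
Log2 expression values (vertical axis) of the 10 kinase genes (horizontal axis) on each array, blue for wild type and red for AN3-GR, with a symbol for each replicate number, short lines for group means and a dotted line at the lower quartile over probe sets (4.06). CDPK2 shows the wide gap, from 4.38 to 4.52 in wild type and from 6.74 to 7.31 in AN3-GR, while CPK32 and CPK28 lie lower in AN3-GR without overlap. Levels of different genes are not comparable, because each probe set has its own response.

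CPK4 is the closest relative of CDPK2, and the pair is known for phosphorylating the transcription factors ABF1 and ABF4 and for promoting abscisic acid responses. The CPK4 value was 8.59, 8.59 and 8.84 in AN3-GR replicates 1 to 3 and 8.67, 8.70 and 9.22 in wild type replicates 1 to 3. The groups overlapped, and replicate 3 was the highest array in each genotype. The log2 change was −0.19 (SE 0.16), and −0.01 without wild type replicate 3. The wide gap of CDPK2 was thus not seen in its nearest relative on these arrays, and the sign of the small CPK4 change is not established. Probe sequences were not used here, so cross-hybridisation between relatives was not tested. No other probe set had values identical to those of any of the 10. This does not bear on cross-hybridisation, since probe sets that share signal need not have equal values.

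CPK12, the next relative in subgroup I, restrains abscisic acid responses in seedlings. It had 7.30, 7.08 and 7.18 in AN3-GR replicates 1 to 3 against 7.27, 7.25 and 7.10 in wild type replicates 1 to 3. The arrays of both genotypes were interleaved, and the log2 change was −0.02 (SE 0.10), with either sign when single arrays were left out (−0.07 to 0.04).

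The other kinases of subgroup I also showed small differences. CPK1, linked to resistance against pathogens, had 7.18, 7.16 and 6.90 in AN3-GR and 6.80, 7.13 and 6.66 in wild type, in the order of replicates 1 to 3. The groups overlapped, with replicate 3 the lowest array in each, and the log2 change was 0.22 (SE 0.14). CPK5 phosphorylates the NADPH oxidase RBOHD, which makes reactive oxygen species in immune responses. Its values were 8.18, 8.13 and 8.14 in AN3-GR and 8.13, 8.04 and 8.04 in wild type. The AN3-GR arrays lay just above the wild type arrays, with a log2 change of 0.08 (SE 0.09). The residual SD of CPK5 within genotypes, 0.0408, was the smallest among the 10 and stood at percentile 2.19 of all probe sets.

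CPK6, which acts with CPK3 on guard cell ion channels, was the least reproducible of the 10. Its value was 5.03, 4.66 and 5.07 in AN3-GR replicates 1 to 3 and 4.02, 4.98 and 5.11 in wild type replicates 1 to 3. Wild type replicate 1 stood about 1 log2 unit under the other wild type arrays. The residual SD of 0.45 lay at percentile 99.3 of all probe sets. The log2 change of 0.22 (SE 0.26) became −0.13 without wild type replicate 1.

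CPK3, the 1 kinase of subgroup II among the 10, takes part in stomatal closure and calcium-dependent anion channel control. Its values were 9.54, 9.61 and 9.89 in AN3-GR replicates 1 to 3 and 9.29, 9.19 and 9.59 in wild type replicates 1 to 3. Each AN3-GR array was above the wild type array of its number, by 0.26, 0.42 and 0.30, yet wild type replicate 3 reached into the AN3-GR range. The log2 change was 0.32 (SE 0.14) and lay between 0.22 and 0.44 with single arrays left out. The guard cell markers did not share this sign, with 1 of 5 above 0 and a median change of −0.08, where 45.8% of all probe sets were above 0. The most negative marker was AT1G22690 at −0.48 (SE 0.20), with differences of −0.54, −0.28 and −0.61 between arrays of the same number. It was the 1 marker that passed with the replicate block (limma adjusted p = 0.0363, against 0.260 without it), where 3.03% of all probe sets passed as lower. The SE of 0.20 is from the fit without the block. The part of this in the values of CPK3 and CPK6 was not tested.

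In subgroup III, CPK30 and CPK32 phosphorylate the nitrate response factor NLP7, and CPK32 also interacts with ABF4. CPK32 had 8.51, 8.40 and 8.85 in AN3-GR replicates 1 to 3 and 8.95, 9.12 and 9.17 in wild type replicates 1 to 3. Every AN3-GR array lay under every wild type array, the nearest being AN3-GR replicate 3 and wild type replicate 1. The means were 8.59 ± 0.23 and 9.08 ± 0.12 (log2, SD, n = 3 each), a log2 change of −0.49 (SE 0.13) or 1.41-fold lower in AN3-GR. CPK30 was weak on all arrays, at 3.53, 3.45 and 3.38 in AN3-GR and 3.40, 3.45 and 3.50 in wild type. All 6 values lay in the weakest 25% of the table, and the change of 0.00 (SE 0.09), whose sign turned when the arrays were centred on their medians, says little about this transcript.

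CPK28, of subgroup IV, restrains immune signalling by promoting the turnover of the kinase BIK1 and is needed for stem elongation. Its value was 7.54, 7.46 and 7.75 in AN3-GR replicates 1 to 3 and 7.95, 8.08 and 8.11 in wild type replicates 1 to 3. As with CPK32, the groups did not overlap and AN3-GR was lower. The means were 7.59 ± 0.15 and 8.05 ± 0.08 (log2, SD, n = 3 each), which gives a log2 change of −0.46 (SE 0.11) or a level 1.38-fold lower in AN3-GR. Without any 1 array it ran from −0.54 to −0.40, and that of CPK32 from −0.62 to −0.40.

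The genotypes did not overlap for 4 of the 10 kinases, where 22.2% of all probe sets did not overlap. AN3-GR lay above for CDPK2 and CPK5 (12.8% of all probe sets) and below for CPK28 and CPK32 (9.4%). In limma with Benjamini-Hochberg adjustment over all probe sets, 1 of the 10, CDPK2, had an adjusted p under 0.05, where 0.789% of all probe sets passed in either direction and 0.56% as higher. With the replicate number as a block 3 of the 10 passed, CPK28 and CPK32 being added, against 6.63% of all probe sets, 3.59% as higher and 3.03% as lower. The log2 change was above 0 for 6 of the 10 and for 45.8% of all probe sets. Since the kinases were chosen with this contrast known, nothing is read from these shares. Of the 169 probe sets that passed without the block 71% were higher in AN3-GR, and 49.6% of those that passed after the arrays were centred on their medians. The median log2 change of the 10 was 0.04 and that of all probe sets −0.02.

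The rest of the family gave no member past the test. Of the 24 other family loci 21 were measured, and 0 passed in either direction in limma with Benjamini-Hochberg adjustment, 0 with the replicate block and 0 at an unadjusted p under 0.05, where 18% of all probe sets lay under it. Their median log2 change was −0.00, with 10 above 0 and 11 below, and 12 of the 21 lay within 0.1 of 0. The sign turned with the scaling of the arrays for 5 of them, namely CPK8, CPK16, CPK17, CPK24 and CPK34. Both genotype means were under the lower quartile for 11 of the 21, which the arrays therefore describe poorly.

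CPK2, CPK20, CPK25 and CPK26 complete subgroup I with log2 changes of 0.12 (SE 0.14), −0.13 (SE 0.12), −0.12 (SE 0.13) and 0.08 (SE 0.09). CPK2 is a near relative of CPK1, and its values of 4.49 to 5.10 in AN3-GR and 4.64 to 4.71 in wild type overlapped. CPK20, CPK25 and CPK26 were weak in both genotypes. Beside CDPK2 no measured subgroup I gene had a change beyond 0.22 in size.

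In subgroup II the log2 changes ran from −0.34 for CPK29 to 0.25 for CPK33. CPK33 had 4.80, 4.69 and 4.73 in AN3-GR and 4.19, 4.38 and 4.90 in wild type in replicates 1 to 3, and its wild type arrays spread over the AN3-GR range. CPK9, which with CPK33 acts on guard cell channels, had 7.16 to 7.24 in AN3-GR and 6.77 to 7.12 in wild type. Its groups did not overlap, but for its change of 0.24 (SE 0.11) limma with Benjamini-Hochberg adjustment gave adjusted p = 0.286. CPK29, a regulator of auxin transport proteins, had a wide spread in wild type (3.71 to 4.72), and its change of −0.34 (SE 0.24) gave adjusted p = 0.486 in the same limma fit. CPK15 at −0.14, CPK17 at −0.00, CPK19 at 0.04, CPK23 at 0.04, CPK27 at −0.07 and CPK34 at −0.03 were closer to 0. CPK17 and CPK34, kinases of the pollen tube, and CPK19 and CPK23 were under the lower quartile in both genotypes.

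In subgroup III no other measured gene had a negative change as large as that of CPK32. CPK7 had a log2 change of 0.28 (SE 0.13), CPK8 of 0.03 (SE 0.13), CPK10 of −0.17 (SE 0.11), CPK13 of −0.08 (SE 0.10), CPK14 of 0.04 (SE 0.10) and CPK24 of 0.00 (SE 0.10). Of the 8 genes of subgroup III, 5 had changes above 0 and 3, CPK10, CPK13 and CPK32, below 0. The groups of CPK13 overlapped. CPK14 and CPK24 were weak in both genotypes, under the lower quartile, so their changes say little. CPK10 acts with CPK30 and CPK32 on NLP7, and its values of 6.66 to 6.84 in AN3-GR overlapped those of 6.73 to 7.04 in wild type. In subgroup IV, CPK16 at −0.04 (SE 0.12) and CPK18 at −0.08 (SE 0.09) were weak in both genotypes, so CPK28 was the only one of its 3 genes with a clear signal. Whether the change of one kinase differed from that of its relatives was not tested.

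**Figure D2:**
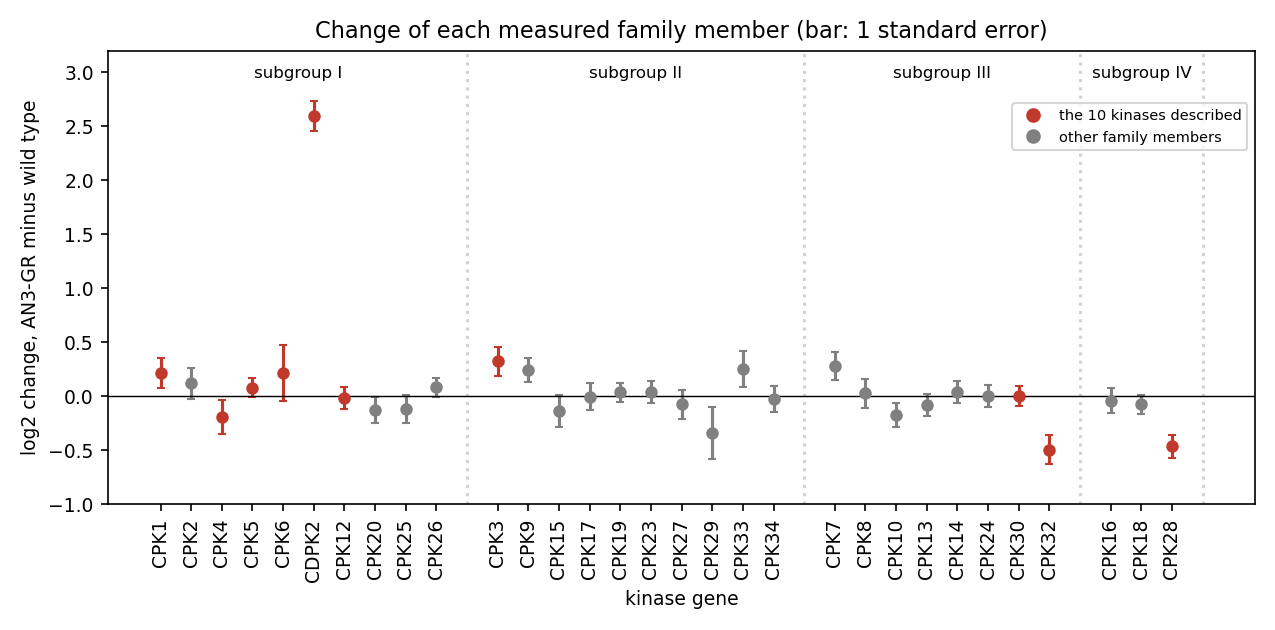
Log2 change, AN3-GR minus wild type (vertical axis), of the 31 measured family members (horizontal axis) by subgroup, with bars of 1 standard error, the 10 kinases described in red and the others in grey. CDPK2 stands at 2.59, and every other gene lies between −0.49 (CPK32) and 0.32 (CPK3).

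A comparison that did not enter the choice of the kinases is that between replicate numbers, which is balanced over the genotypes. In a limma F test of the replicate number beside the genotype, 0 of the 10 kinases passed at an adjusted p under 0.05 with Benjamini-Hochberg adjustment, where 0% of all probe sets passed. At an unadjusted p under 0.05 there were 3 of the 10, where 16.7% of all probe sets lay under it. These were CPK4 (adjusted p = 0.230 from limma), CPK3 (adjusted p = 0.232) and CPK1 (adjusted p = 0.288). The mean of the arrays numbered 3 was above the gene's overall mean by 0.26 for CPK4 and by 0.22 for CPK3, and it differed by −0.19 for CPK1. With an intensity trend and robust prior variance, CPK3 and CPK4, 2 of the 10, passed in limma together with 2109 of all probe sets (9.84%).

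The transcripts nearest to CDPK2 in profile were found from the root mean square difference over the 6 arrays, after each gene was centred on its own mean. AN3 was the nearest at 0.29, followed by APS3, an ATP sulfurylase of sulfate assimilation, at 0.47, the loci AT3G15357 at 0.49 and AT5G22580 at 0.55, and the CONSTANS-like gene COL5 at 0.62. The median over all other probe sets was 1.32. In AN3-GR, both CDPK2 and AN3 were lowest on replicate 2 (6.74 and 10.02), and in wild type both were highest on replicate 3 (4.52 and 7.61). The other array orders differed. In AN3-GR CDPK2 was highest on replicate 3 (7.31) and AN3 on replicate 1 (10.56, against 10.55 on replicate 3). In wild type CDPK2 was lowest on replicate 1 (4.38) and AN3 on replicate 2 (6.98). Among the kinases CPK3 came closest at 1.14, behind 1265 other transcripts, and CPK32 was the farthest at 1.54. These distances rest on the same genotype gap that marked CDPK2 out and are given as a description.

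**Figure D3:**
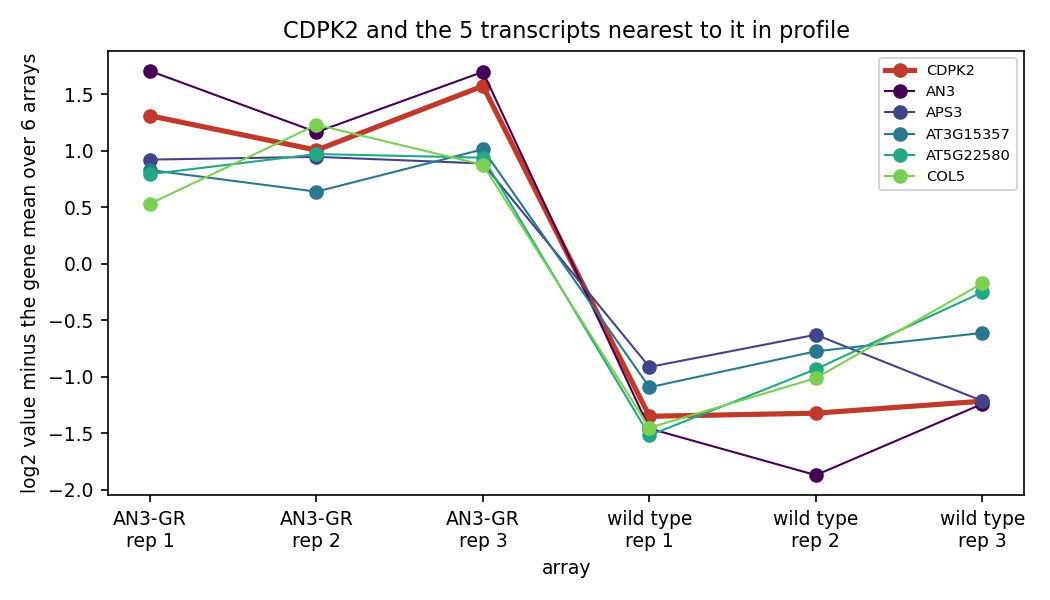
Log2 value minus the gene's mean over the 6 arrays (vertical axis) on each array (horizontal axis) for CDPK2, thick red, and the 5 transcripts nearest to it. All 6 lie above 0 on the AN3-GR arrays and below 0 on the wild type arrays, and AN3 runs closest to CDPK2, with a root mean square difference of 0.29.

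The genes beside CDPK2 on the chromosome did not share its difference. Of the 3 nearest measured genes on one side, AT1G35663 had a log2 change of −0.08 (SE 0.09), AT1G35660 of 0.20 (SE 0.15) and the protein disulfide isomerase-like gene PDIL5-2 of 0.13 (SE 0.11). On the other side RPL21C had −0.02 (SE 0.09), AT1G35710 −0.31 (SE 0.15) and the annexin gene ANNAT1, whose protein binds calcium and membranes, 0.02 (SE 0.15). RPL21C, the next gene in the table, had a strong signal of 12.77 to 12.88 in AN3-GR and 12.77 to 12.89 in wild type. AT1G35663, the next gene on the other side, was weak on all arrays. The means of AT1G35710, 3.73 in AN3-GR and 4.04 in wild type, were both under the lower quartile. For AT1G35660 the wild type mean, 4.04, was under it and the AN3-GR mean, 4.24, was not. PDIL5-2 stood 10 places from CDPK2 in the gene table. All 6 neighbours had overlapping groups, and their adjusted p-values in limma with Benjamini-Hochberg adjustment were between 0.317 and 0.963.

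Related kinase systems showed no gene past the test. The CDPK-related kinases and the PEP carboxylase kinases with their relatives share ancestry with the calcium-dependent kinases. All 12 of these were measured, with 6 above and 6 below 0, a median log2 change of 0.03 and 0 past the test in limma (2 at an unadjusted p under 0.05, close to the 18% of all probe sets). The gene table gives no name for 5 of these loci, which were listed from general knowledge and are printed by locus. The most positive was AT1G49580 at 0.38 (SE 0.13) and the most negative PEPKR1 at −0.13 (SE 0.10). The CBL proteins bind calcium and then activate CIPK kinases, a sensor system that works beside the calcium-dependent kinases. Of 23 such genes 22 were measured, with a median of −0.04 and 0 past the test in limma (1 at an unadjusted p under 0.05). They ran from −0.35 (SE 0.23) for CIPK14 to 0.31 (SE 0.20) for CIPK21. With the replicate block in limma 0 genes of either list passed.

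Transcripts of known substrates and partners of these kinases were mostly lower in AN3-GR. Of the 19 measured, 0 passed in limma with Benjamini-Hochberg adjustment, where 0.789% of all probe sets passed. At an unadjusted p under 0.05 in limma there were 6 of the 19, where 18% of all probe sets lay under it. Negative changes were seen for 15 of the 19 and for 11612 of all 21428 probe sets. The median was −0.18 against −0.02 over all probe sets. ABF1 and ABF4, the substrates of CDPK2 and CPK4, had changes of 0.06 (SE 0.11) and 0.07 (SE 0.10), ABF4 being the most positive of the list. The most negative was CBP60G, a transcription factor of salicylate synthesis, at −0.82 (SE 0.34), with 5.80, 5.88 and 6.94 in AN3-GR replicates 1 to 3 and 6.46, 6.95 and 7.66 in wild type replicates 1 to 3. Its groups overlapped because replicate 3 was high in both.

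With the replicate block 5 of these 19 were lower in limma with Benjamini-Hochberg adjustment, where 3.03% of all probe sets were, and they are named for that outcome, after their values were seen. They were CBP60G (adjusted p = 0.0194), RBOHD (0.0239), the ethylene precursor synthase ACS6 (0.0263), the anion channel SLAH3 (0.0323) and PUB25 (0.0328), a ubiquitin ligase for BIK1. Without the block, limma gave adjusted p = 0.256 for CBP60G, 0.316 for ACS6, 0.0834 for SLAH3 and 0.265 for PUB25. The groups of ACS6 and PUB25 overlapped like those of CBP60G, and the AN3-GR mean of SLAH3, 3.77, was under the lower quartile. RBOHD had 8.73, 8.77 and 9.18 in AN3-GR replicates 1 to 3 and 9.44, 9.56 and 9.62 in wild type replicates 1 to 3. These groups did not overlap, and the log2 change was −0.65 (SE 0.13), with an adjusted p of 0.0606 in limma without the block.

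Abscisic acid genes were also mostly lower, with 1 of 13 measured past the test, where 0.229% of all probe sets passed as lower. Negative changes were found for 11 of the 13 and for 11612 of all 21428 probe sets. The median of the 13 was −0.26. This was PP2CA, a protein phosphatase that blocks abscisic acid signalling until the hormone is bound by its receptors. PP2CA was lower in AN3-GR by 0.73 on the log2 scale (SE 0.11). Its value was 7.33, 7.60 and 7.61 in AN3-GR replicates 1 to 3 and 8.14, 8.19 and 8.38 in wild type replicates 1 to 3, with all AN3-GR arrays lower. The adjusted p was 0.0360 in limma with Benjamini-Hochberg adjustment, 0.0326 without wild type replicate 3, and over 0.05 without any other 1 array, up to 0.209. With the replicate block 2 passed in limma as lower, where 3.03% of all probe sets did. COR15A, a cold and drought response gene, was the second, at −0.76 (SE 0.54 in the fit without the block). With the block limma gave it an adjusted p of 0.0219. Its groups overlapped, and without the block limma gave COR15A an adjusted p of 0.491.

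Genes that report flagellin responses, in which CPK4, CPK5, CPK6 and CDPK2 act, had 6 of 8 negative changes and a median of −0.16. Over all 21428 probe sets 11612 changes were negative. In limma 0 of the 8 passed, and 2 had an unadjusted p under 0.05, where 18% of all probe sets did. The most positive was CYP81F2 at 0.04 (SE 0.12) and the most negative WRKY33, a transcription factor of camalexin defence, at −0.83 (SE 0.26). WRKY33 was the 1 gene of this list that passed with the replicate block (limma adjusted p = 0.0188, against 0.150 without it). With the block 3.03% of all probe sets passed as lower. The groups of WRKY33 overlapped. Both genotype means were under the lower quartile for 4 of the 8. When the 25% of probe sets with the weakest signal were removed, those 4 dropped out. The median of the few genes left was −0.50, so it describes another set of genes than the −0.16.

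The touch and calmodulin-like genes, which respond to handling and calcium, had 7 of 8 negative changes and a median of −0.45. Over all 21428 probe sets 11612 changes were negative. In this list 1 gene passed, where 0.229% of all probe sets passed as lower. This was AT2G41090, lower in AN3-GR by 0.94 on the log2 scale (SE 0.14). Its adjusted p was 0.0342 in limma after Benjamini-Hochberg adjustment. Leaving out AN3-GR replicate 2 (0.0400) or wild type replicate 3 (0.0298) kept AT2G41090 under 0.05, and leaving out any other array did not, with limma adjusted p-values up to 0.210. With the replicate block 4 of the 8 were lower in limma, CML12, CML23 and XTH22 being added, where 3.03% of all probe sets were lower. Without the block, limma gave adjusted p = 0.400 for CML12, 0.175 for CML23 and 0.205 for XTH22. The groups of CML12 and XTH22 overlapped. The summed level of the 8 was 12.24, 12.38 and 12.89 in AN3-GR replicates 1 to 3 and 12.71, 13.01 and 13.28 in wild type replicates 1 to 3. Replicate 3 was the highest array of each genotype, as it was for CDPK2, CPK3, CPK4, CPK6, CPK28 and CPK32. The share of all probe sets with this order was not counted. Of these kinases only CPK3 and CPK4 had an unadjusted p under 0.05 for the replicate number in the limma F test. CPK1, also under it, was lowest on replicate 3 in each genotype. For 7 of the 8 touch and calmodulin-like genes the replicate number had an unadjusted p under 0.05 in the limma F test. Among all probe sets 16.7% did, and 0 of the 8 had an adjusted p under 0.05. The part of this in the values of the kinases was not tested.

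**Figure D4:**
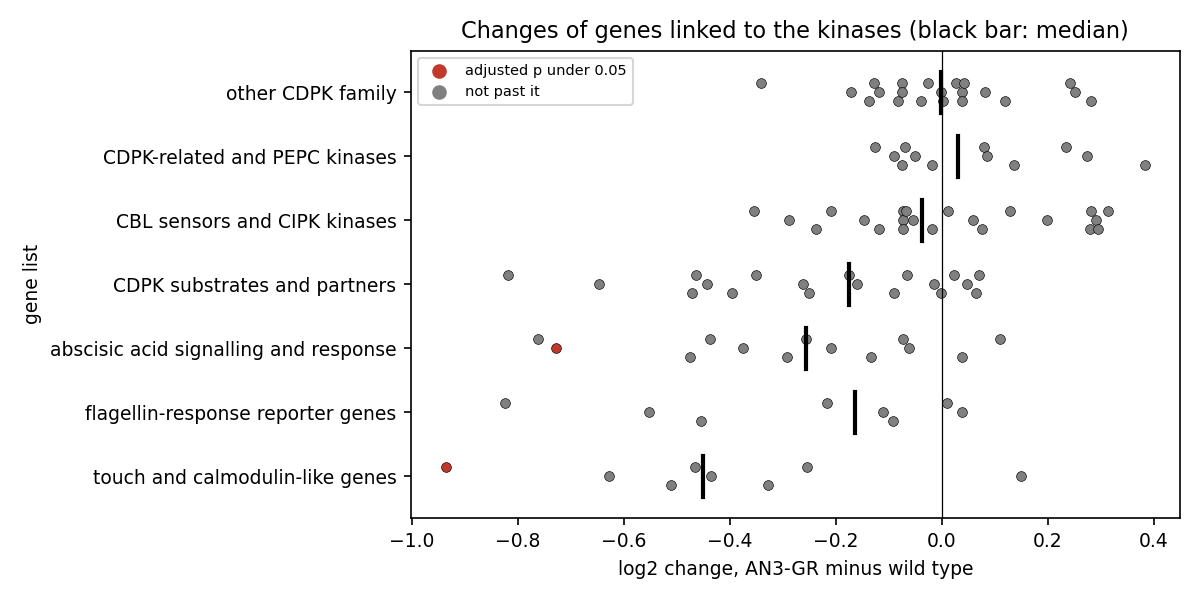
Log2 change, AN3-GR minus wild type (horizontal axis), of each measured gene in 7 lists linked to the kinases (vertical axis), with a black bar at the list median and red points for an adjusted p under 0.05. PP2CA at −0.73 and AT2G41090 at −0.94 are the 2 red points, and medians run from 0.03 for the CDPK-related and PEP carboxylase kinases to −0.45 for the touch and calmodulin-like genes.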

How the data were processed

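The deposited values were log2 expression values per probe set, and the authors had made them with RMA, per the submitters' processing notes, which also name limma and give no versions. RMA corrects the background, gives all arrays the same distribution of probe intensities and summarises probes, so a shift shared by all genes is removed and weak signals are compressed. Probe sets are named by gene locus. Neither the version of that grouping nor a genome build is stated in the labels, so no coordinates are printed. Of 21428 loci, 21231 matched the RefSeq gene table of TAIR10.1, used for symbols and for the order of neighbours, and 0 sample columns were left unused.

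The values were used as deposited. The genotype contrast was fitted in R 4.3.3 with limma 3.58.1 (lmFit and eBayes, all 6 arrays, no covariate, two-sided), with Benjamini-Hochberg adjustment over all probe sets and a threshold of 0.05. The script was tested on simulated data. The precision is limited by 3 arrays per group. Every standard error (SE) is from the fit without a covariate, also where a blocked p-value is given for the same gene. The replicate number was tested with limma's F test in a model with the genotype. In the labels, each genotype has repeats numbered 1 to 3. Deviations of arrays from their group mean correlated between arrays of the same number at 0.161, 0.416 and 0.494, all over a bound of 0.1, so blocked values stand beside results they change.

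The 10 kinases and the gene lists were chosen with earlier results of these data known. Lists were recalled from general knowledge of the field, 128 of 138 entries were measured, and each locus was looked up in the gene table. Every measured kinase of the family was named, while CPK21, CPK22 and CPK31 were listed but not measured. In other lists the genes past the threshold were named or, with none, the largest change in each direction. AN3, the 5 nearest profiles and 3 neighbours on each side were named too. Genes that passed only with the block are named beyond that rule. Other settings were centring on array medians, another quantile normalization, leaving out the weakest 25% of probe sets, array weights, the replicate block, an intensity trend with robust prior variance, and leaving out each array.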

Additional observations from a re-analysis of the deposited data

How the results depend on the processing

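The 10 kinases were chosen with the genotype contrast known, so their calls under other settings of that contrast describe the fits and are no support for the differences. The log2 change of CDPK2 was 2.45 to 2.74 in the 12 other settings. Of the 10 kinases 1 passed in the reported fit and with any 1 array left out. There were 2 with an intensity trend and robust prior variance (2.6% of all probe sets), which added CPK28, and 3 with array weights (5.28%) or the replicate block (6.63%), which added CPK28 and CPK32. Over all probe sets, 169 in the reported fit, the counts were 558 with the trend, 1132 with array weights, 1420 with the replicate block and 9 to 779 with single arrays left out (10, 21 and 22 without AN3-GR replicate 1, 2 and 3, and 12, 9 and 779 without wild type replicate 1, 2 and 3). Of the 103 genes in the lists around the kinases 2 passed, with 6 under array weights, 12 under the replicate block and 0 to 4 with single arrays left out. The replicate number gave 0 calls over all probe sets, with 3587 at an unadjusted p under 0.05, and 2109 with the trend and 5 with array weights. The cause of these differences was not tested. Signs of CPK6, CPK12 and CPK30 turned when single arrays were left out, and that of CPK30 with centring. Signals near the lower quartile, 4.06, limit what can be said of CPK30 and of 11 other family members.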
